A study of Mus musculus with 27 samples.

Results

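The 10 genes of the contractile apparatus of visceral smooth muscle that were followed in RNA-Seq of scraped mouse ileum were *Acta2*, *Actg2*, *Tagln*, *Des*, *Myh11*, *Cnn1*, *Smtn*, *Myl9*, *Synpo2* and *Lmod1*. They were found by their Ensembl identifiers, 10 of the 46078 genes in the count tables, and all 10 passed the filter on low counts that left 16741 genes for testing. In the tables they varied widely and together from mouse to mouse within a dose, and 0 of the 10 was called at any dose against vehicle. *Smtn* varied far less than the other 9.

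The gut wall holds layers of smooth muscle outside the epithelium, the muscularis externa, and a thin muscularis mucosae directly beneath the mucosa. In these cells, filaments of smooth muscle actin slide along filaments of smooth muscle myosin when calcium and calmodulin activate myosin light chain kinase, which phosphorylates the regulatory light chain. The serum response factor SRF and its coactivator myocardin, which bind a promoter sequence called the CArG box, are known to drive many of these genes. Scraping is meant to collect the epithelium, which is not known as the main source of most of these transcripts. Blood vessels and mucosal myofibroblasts also make some of them.

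The samples came from 27 male C57BL/6 mice killed on postnatal day 56, with 3 mice in each of 9 groups. A control group received sesame oil vehicle by gavage, and the other 8 groups received the dioxin TCDD, a persistent ligand of the aryl hydrocarbon receptor (AhR). The doses, from the highest, were 30, 10, 3, 1, 0.3, 0.1, 0.03 and 0.01 µg/kg, and all groups were dosed every 4 d over 28 d. The distal ileum was flushed, opened and scraped, and the scraping of each mouse gave 1 library with 12.26 to 17.14 M counts on genes. The study co-housed its mice and the cage of each mouse was not used here, so p-values treat the mice as independent. The study also timed gut transit, which was not analysed here.

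The labels were checked first. *Cyp1a1*, a target of AhR, lay between 0 and 0.211 CPM (counts per 1000000 counts on genes, scaled by TMM) in vehicle mice, and at 30 µg/kg between 1062 and 2279 CPM. From 0.01 to 0.3 µg/kg it was at most 0.887 CPM and overlapped vehicle, so it could not check the labels of those doses. Epithelial markers far exceeded the muscle genes, with 8 of them summing to 10419 to 13183 CPM and the 10 muscle genes to 43.6 to 483 CPM. The scrapings held transcripts of muscle genes at 0.00436 to 0.0483% of the counts on genes as scaled by TMM. In a bulk scraping, fewer muscle cells and less RNA per muscle cell cannot be told apart.

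The promoters of *Acta2* and *Myl9* are printed because theirs were the windows, of the 7 members with a RefSeq window (GRCm38.p6), that held a CArG-like box. The search of both strands covered 250 bases before to 50 bases after each gene's RefSeq start, and the bases before that start are shown. Capitals mark CArG-like boxes, which are CC and GG around a core of 6 bases that are A or T, allowing 1 other base, so that every CArG box is also CArG-like. The *Acta2* stretch is chr19:34255374-34255623 on the minus strand, with boxes starting 84 and 34 bases before the RefSeq start. The *Myl9* stretch is chr2:156775214-156775463 on the plus strand, with boxes starting 161 and 99 bases before the RefSeq start. Both RefSeq starts lie inside the GENCODE genes, whose coordinates are given with the results, so the *Acta2* boxes fall within its GENCODE gene and the *Myl9* boxes before its GENCODE start.
Acta2: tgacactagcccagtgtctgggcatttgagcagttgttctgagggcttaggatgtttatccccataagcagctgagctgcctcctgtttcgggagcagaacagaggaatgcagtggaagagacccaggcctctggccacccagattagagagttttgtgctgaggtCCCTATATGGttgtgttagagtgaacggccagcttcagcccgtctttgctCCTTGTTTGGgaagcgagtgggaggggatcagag
Myl9: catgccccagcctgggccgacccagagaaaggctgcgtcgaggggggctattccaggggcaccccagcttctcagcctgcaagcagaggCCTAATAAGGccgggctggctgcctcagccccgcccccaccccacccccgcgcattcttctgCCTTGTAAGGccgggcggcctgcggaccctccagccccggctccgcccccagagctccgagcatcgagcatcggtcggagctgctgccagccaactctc
Of these boxes, CCTAATAAGG in *Myl9* has a core of A and T alone. Over 32851 windows of the same length, 1.63% held a CArG box and 9.98% a CArG-like box. The AhR core GCGTG, searched on both strands, was in the windows of 4 members (*Cnn1*, *Lmod1*, *Smtn* and *Synpo2*) and in 32.4% of all windows.

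Per length of exon, *Acta2* was highest, with a median over the 27 mice of 6.08 CPM per kb, and *Lmod1* lowest at 0.371 CPM per kb. *Myh11* (5.97 CPM per kb), *Myl9* (5.25 CPM per kb), *Smtn* (4.36 CPM per kb) and *Actg2* (4.01 CPM per kb) followed *Acta2* closely. Neighbours among these first genes did not differ beyond their spread, since the gene with the higher median was the higher in 14 to 17 of 27 mice. With the longest transcript as the length, *Myh11* (6.92 CPM per kb) was above *Acta2* (6.57 CPM per kb). *Des* came next at 3.31 CPM per kb, under *Actg2* in 22 mice, and then *Tagln* at 2.88 CPM per kb. A wider gap followed, with *Tagln* above *Cnn1* (0.922 CPM per kb) in 27 of 27 mice. *Cnn1* was above *Synpo2* (0.736 CPM per kb) in 20 mice, and *Synpo2* above *Lmod1* in 25. The *Tagln* level may be uncertain. In GENCODE M21, 58.3% of its 50-base stretches also occur in transcripts of other genes, mostly the annotated gene *Gm48529*. *Tagln* also overlaps *Pcsk7* on the other strand. Whether *Gm48529* was among the genes counted, and how far this changed the *Tagln* counts, was not tested.

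Both actins varied widely from mouse to mouse. *Acta2* encodes smooth muscle alpha actin, also made by vessels and myofibroblasts, and *Actg2* the gamma actin typical of gut muscle. *Acta2* lies on chromosome 19 (34241090 to 34255590, minus strand, GRCm38) and *Actg2* on chromosome 6 (83512905 to 83536265, minus strand). *Acta2* was at 16.2, 4.99 and 5.74 CPM in the 3 vehicle mice, numbers 2, 3 and 4. At 10 µg/kg it was at 29.7, 56.0 and 6.56 CPM in mice 57, 58 and 59. At 30 µg/kg it was at 45.5, 9.44 and 5.21 CPM in mice 65, 67 and 68. Mice 57, 58 and 65 lay above all vehicle mice, and the other 3 of these treated mice lay within the vehicle range. *Acta2* ranged 20.8-fold over the 27 mice, from 2.69 CPM in mouse 43 at 1 µg/kg to 56.0 CPM in mouse 58.

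*Actg2* was measured at 7.53, 1.54 and 3.11 CPM in vehicle mice. At 10 µg/kg its levels were 20.5, 37.5 and 2.70 CPM. Those given 30 µg/kg were at 23.4, 4.25 and 1.30 CPM. The same mice were high as for *Acta2*. Against vehicle its log2 fold change was 2.32 ± 0.91 (SE, n = 3 against 3) at 10 µg/kg, with an adjusted p of 0.171, and 1.26 ± 0.92 at 30 µg/kg, with an adjusted p of 0.373 by the quasi-likelihood test of edgeR, adjusted over all genes by the Benjamini-Hochberg method. *Acta2* gave 1.78 ± 0.83 (adjusted p = 0.265) at 10 µg/kg by the same edgeR test. The 95% interval of the *Actg2* difference at 30 µg/kg ran from -0.64 to 3.16 on the log2 scale, so neither no change nor a rise of several fold was outside it.

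**Figure D1:**
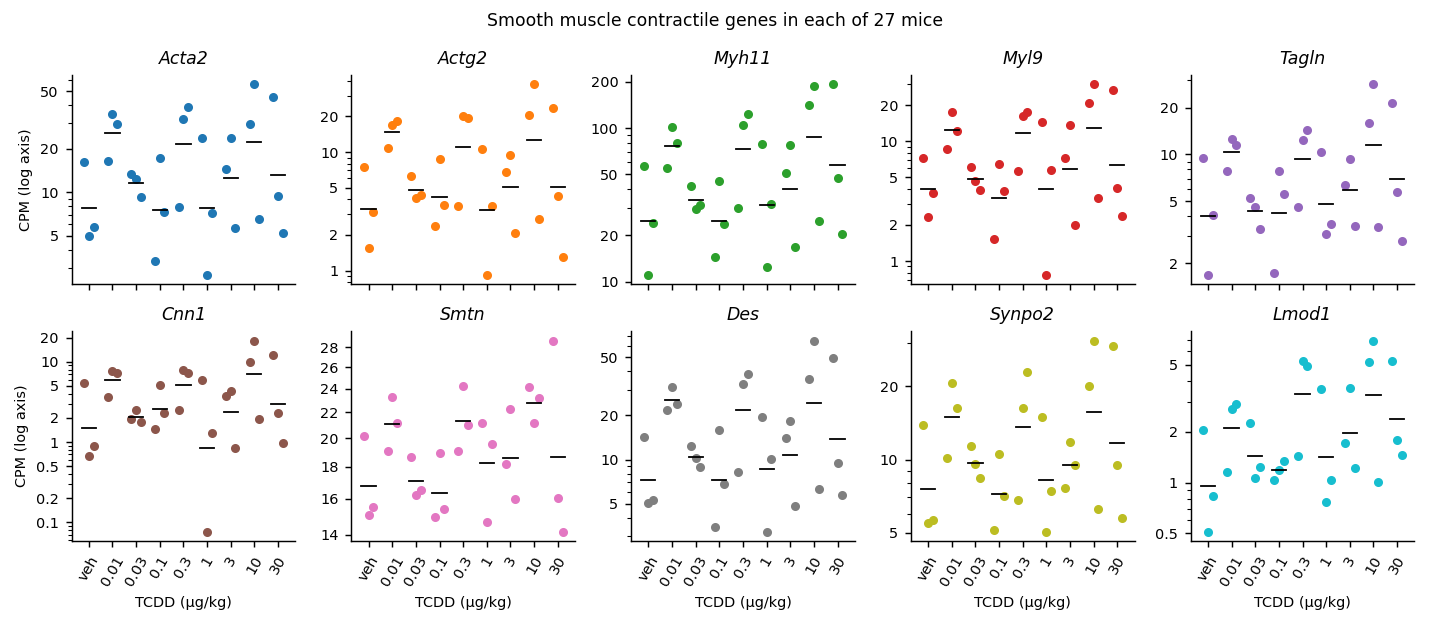
CPM of each gene (log axis, each panel with its own range) in the 27 mice by TCDD dose (µg/kg, "veh" is vehicle). Points are mice and bars the mean on the log scale of 3 mice. Within most doses the 3 mice of a group lie far apart, as for *Acta2* at 10 µg/kg (6.56 to 56.0 CPM), and *Smtn* spans 14.2 to 28.6 CPM in all.

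Of the myosin genes, *Myh11* encodes the heavy chain of smooth muscle myosin, the motor itself, and *Myl9* a regulatory light chain. *Myh11*, on chromosome 16 (14194535 to 14291372, minus strand), had the highest median count of the 10, with 151 to 2870 counts per mouse. Its level was 56.7, 11.1 and 24.0 CPM in vehicle mice. Mice given 0.01 µg/kg had 55.1, 102 and 79.8 CPM, those given 0.03 µg/kg had 42.1, 29.5 and 31.8 CPM, and those given 0.1 µg/kg had 14.5, 45.3 and 23.6 CPM. These low doses did not follow an order, with the highest levels at the lowest dose. *Myh11* was then at 30.1, 105 and 123 CPM at 0.3 µg/kg. Mice given 1 µg/kg had 78.4, 12.4 and 31.9 CPM, and those given 3 µg/kg had 50.7, 77.6 and 16.7 CPM. Between these 2 doses the mice overlapped. At 10 µg/kg *Myh11* was at 141, 189 and 24.7 CPM, and at 30 µg/kg it was at 194, 47.4 and 20.3 CPM. In each of the higher doses at least 1 mouse lay within the vehicle range.

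*Myh11* differed from vehicle by 1.95 ± 0.80 on the log2 scale at 10 µg/kg (adjusted p = 0.193, edgeR) and by 1.51 ± 0.79 at 30 µg/kg (adjusted p = 0.196, edgeR). *Myl9*, on chromosome 2 (156775420 to 156781658, plus strand), was at 7.25, 2.35 and 3.74 CPM in vehicle mice and at 20.8, 30.2 and 3.39 CPM at 10 µg/kg. At 30 µg/kg it was at 26.8, 4.10 and 2.36 CPM. Within these groups the mice ranked as for *Myh11*, and the fold change at 10 µg/kg was 2.03 ± 0.86 on the log2 scale (adjusted p = 0.217, edgeR).

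The proteins that bind actin filaments divided into a variable pair and a steady gene. *Tagln* encodes transgelin (SM22 alpha), and *Cnn1* encodes calponin, which restrains the myosin ATPase. *Tagln* was at 9.43, 1.69 and 4.08 CPM in vehicle mice, with 16.0, 28.3 and 3.39 CPM in those given 10 µg/kg and 21.3, 5.72 and 2.77 CPM in those given 30 µg/kg. *Cnn1* was at 5.42, 0.660 and 0.900 CPM in vehicle mice, with 10.0, 18.2 and 1.93 CPM in those given 10 µg/kg and 12.0, 2.32 and 0.977 CPM in those given 30 µg/kg. Both rested on few counts in the mice where they were low, down to 23 for *Tagln* and 1 for *Cnn1* (mouse 43). Their log2 fold changes at 10 µg/kg were 1.65 ± 0.71 (*Tagln*, adjusted p = 0.226, edgeR) and 2.11 ± 0.92 (*Cnn1*, adjusted p = 0.227, edgeR).

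*Smtn* encodes smoothelin, an actin-binding protein of fully differentiated contractile muscle cells, and lies on chromosome 11 (3517523 to 3540612, minus strand). It was at 20.1, 15.0 and 15.5 CPM in vehicle mice, with 24.1, 21.2 and 23.2 CPM in those given 10 µg/kg and 28.6, 16.0 and 14.2 CPM in those given 30 µg/kg. Its highest level was 2.02 times its lowest over the 27 mice, against 6.07 times for *Synpo2* and 40.7 times for *Actg2*. At 10 µg/kg the 3 treated mice lay above the 3 vehicle mice, which no other member did at that dose, and the exact permutation test gave its smallest possible p of 0.1. The fold change of 0.43 ± 0.20 on the log2 scale had an adjusted p of 0.247 (edgeR). At 30 µg/kg its 95% interval, -0.19 to 0.63, was the narrowest of the members. Its transcripts share 9.46% of their 50-base stretches with another annotated gene, *Gm11946*. In mouse 43 at 1 µg/kg *Smtn* was at 14.7 CPM and *Actg2* at 0.921 CPM. Which cells of the scrapings gave the *Smtn* transcripts was not tested.

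*Des* encodes desmin, the intermediate filament that links dense bodies in muscle cells. It was at 14.3, 5.06 and 5.33 CPM in vehicle mice, with 35.4, 64.6 and 6.25 CPM in those given 10 µg/kg and 49.6, 9.44 and 5.70 CPM in those given 30 µg/kg. The change at 10 µg/kg was 2.11 ± 0.80 on the log2 scale (adjusted p = 0.153, edgeR). *Synpo2* encodes myopodin, an actin-bundling protein, and *Lmod1* encodes leiomodin, which starts actin filaments in smooth muscle. *Synpo2* was at 13.9, 5.50 and 5.68 CPM in vehicle mice and at 20.2, 30.7 and 6.25 CPM at 10 µg/kg. *Lmod1*, the lowest of the 10 per length, was at 2.04, 0.513 and 0.831 CPM in vehicle mice and at 5.17, 6.93 and 1.00 CPM at 10 µg/kg. *Lmod1* had the smallest adjusted p of the members, 0.125 at 10 µg/kg by edgeR, with a log2 fold change of 1.95 ± 0.69.

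Over the 8 doses, 0 of 80 member tests passed the call by edgeR (a fold change of 1.5 or more with an adjusted p no higher than 0.05), and DESeq2 also called 0 in this and the 2 tests across doses given after it. Over all genes the same call held for 0% at each of the 4 lowest doses, 0.591% at 1 µg/kg, 1.11% at 3 µg/kg, 2.53% at 10 µg/kg and 9.4% at 30 µg/kg. Before adjustment 13 of the 80 had a p under 0.05 by edgeR and 13 by DESeq2. Of those by edgeR, 10 were at 10 µg/kg, where all members had one and 17.4% of all tested genes did. The members share the same 3 mice, so these are not separate observations. Over all tested genes, an unadjusted edgeR p under 0.05 held for 4.18% at 0.01 µg/kg, 3.53% at 0.03, 6.19% at 0.1 and 7.45% at 0.3 µg/kg. It held for 14.1% at 1 µg/kg, 13.7% at 3 and 31.2% at 30 µg/kg. These shares are also the background for the counts of tests in the gene lists below.

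The member changes followed no order of dose. Their median log2 fold change was 1.40 at 0.01 µg/kg, 0.20 at 0.03 µg/kg, 0.00 at 0.1 µg/kg and 1.52 at 0.3 µg/kg. The median was 0.35 at 1 µg/kg, 0.57 at 3 µg/kg, 1.95 at 10 µg/kg and 1.21 at 30 µg/kg, while the median over all tested genes stayed between -0.003 and 0.019. Testing whether a gene differed anywhere over the 9 groups called 0 of 10 members by edgeR at an adjusted p no higher than 0.05, against 9.53% of all genes. The members' adjusted p ran from 0.280 to 0.495 (edgeR), and 0 of 10 had an unadjusted p under 0.05. A trend over the rank of the dose called 0 of 10, against 26.2% of all genes, and *Lmod1*, the member with an unadjusted p under 0.05, had a slope of 0.16 ± 0.07 log2 per step (unadjusted p = 0.0215, adjusted p = 0.0723, edgeR). Without filtering low counts, *Actg2*, *Des* and *Lmod1* were called at 10 µg/kg (adjusted p = 0.0471, 0.0352 and 0.0392, edgeR).

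**Figure D2:**
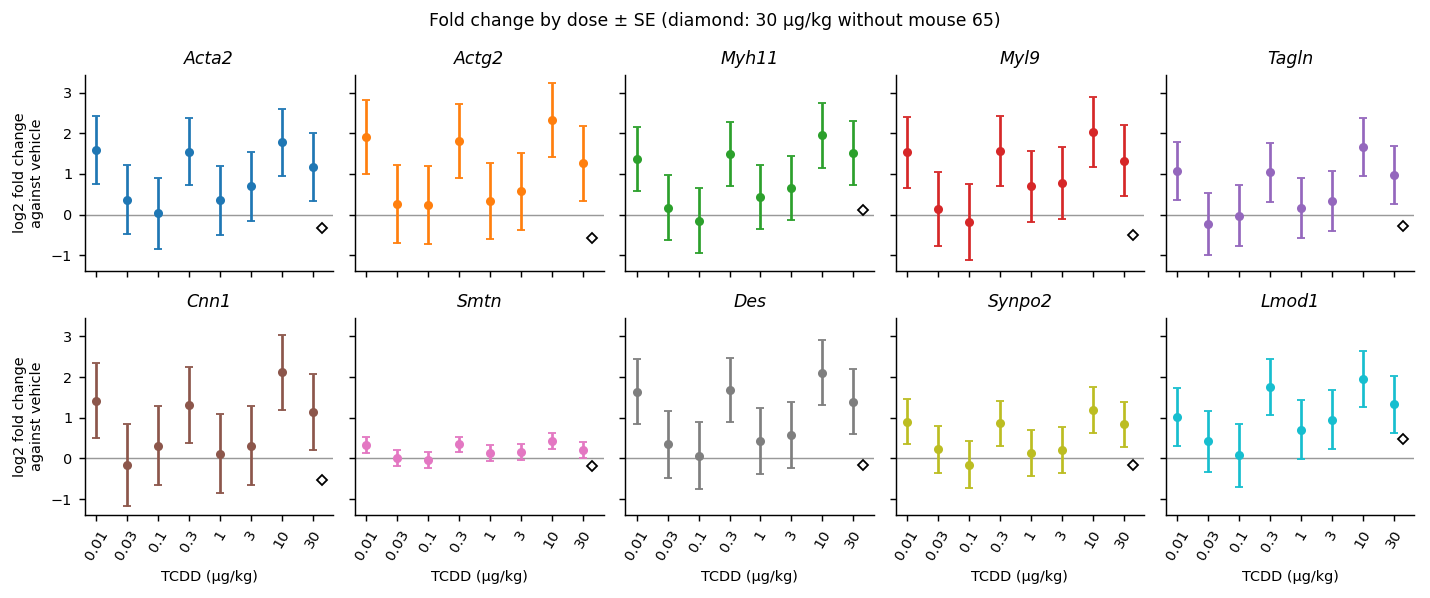
Log2 fold change against vehicle (circles) ± SE from the edgeR fit, by TCDD dose in µg/kg, 3 mice against 3. The diamonds show 30 µg/kg without mouse 65. Changes at 0.01 and 0.3 µg/kg are larger than at 0.03, 0.1, 1 and 3 µg/kg, and 8 of the 10 diamonds lie below 0.

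Single mice decided the sign at the highest dose. All 10 members were above vehicle at 30 µg/kg in the fit, but without mouse 65 the log2 fold change was below 0 for 8 of 10, from -0.57 (*Actg2*) to 0.49 (*Lmod1*), with a median of -0.24. At 10 µg/kg the median moved from 1.95 to 1.34 without mouse 58, and the members with an unadjusted p under 0.05 went from 10 to 1. Without vehicle mouse 3 or 4 that number was also 1. Without vehicle mouse 2 the median at 30 µg/kg was 1.97, and without mouse 3 it was 0.86.

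At 0.01 µg/kg, the lowest dose, *Acta2*, *Actg2*, *Des* and *Myl9* were higher in all 3 treated mice than in all 3 vehicle mice, 4 of 10 members. *Acta2* was at 16.4, 34.9 and 29.7 CPM there, and *Des* at 21.8, 31.3 and 23.8 CPM. Over all tested genes, 5.63% had their treated mice above the vehicle mice at this dose. Each of the 4 had an exact permutation p of 0.1, the smallest that 3 against 3 mice allow, and an edgeR adjusted p that rounded to 1. At 10 µg/kg the count was 1 of 10 members (*Smtn*), against 11.5% of all genes. At the other doses it was 0 of 10, against 4.49% of all genes at 0.03 µg/kg, 7.01% at 0.1, 8.06% at 0.3, 10.3% at 1, 12.4% at 3 and 13.7% at 30 µg/kg.

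Of the 10 genes, 9 were high and low in the same mice, and *Smtn* followed them less closely. With each value taken as the deviation from the mean log2 CPM of its group, the 45 pairs of members had a median Pearson r of 0.92 and a median Spearman rho of 0.92 over 27 mice. The lowest r among pairs without *Smtn* was 0.86, and *Smtn* correlated with the other 9 at 0.66 to 0.79. Mouse 58 was highest for 8 of the 10 genes and mouse 65 for the other two. Mouse 43 was lowest for 6 and vehicle mouse 3 for 3. Leaving out mice 58 and 43, the farthest from the median, left a median r of 0.92. These correlations describe libraries that share their preparation, and the members of a pair share the library, so they carry no p.

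**Figure D3:**
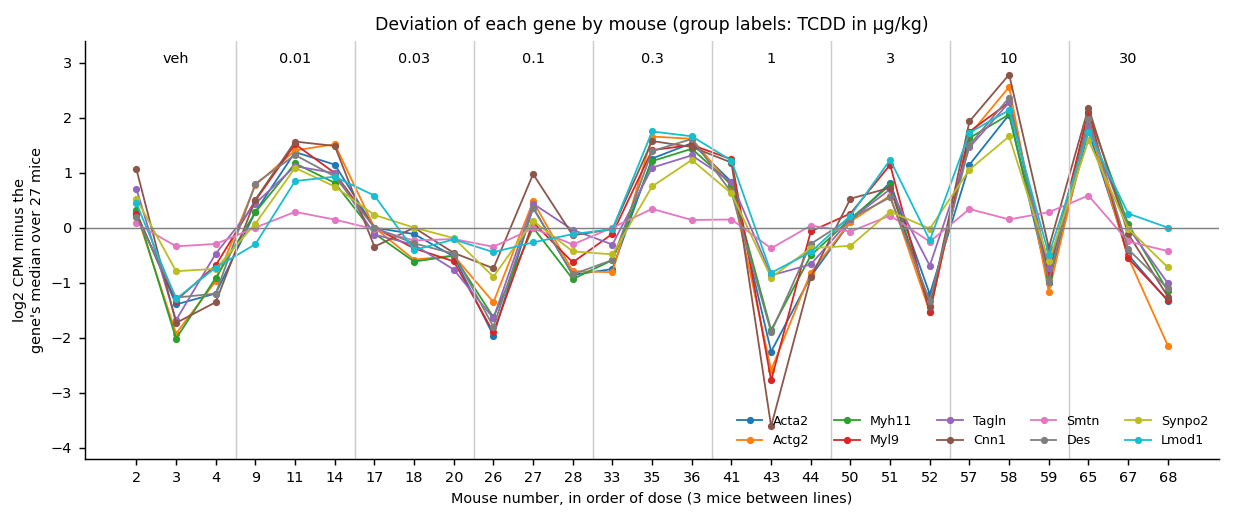
Log2 CPM of each gene minus its own median over the 27 mice, by mouse number in order of dose, with 3 mice between vertical lines and the dose (µg/kg) above them. The lines of 9 genes move together, high in mice 57, 58 and 65 and low in mice 3, 26 and 43, while *Smtn* stays near 0.

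This spread was large among all genes. The SD of log2 CPM between mice of a group had a median of 1.14 over the members and 0.231 over all 16741 tested genes, and 0.514% of genes had an SD as large as the median member. Of the 10, 9 were above the 95th percentile and 7 above the 99th, while *Smtn* (SD 0.254) was at percentile 54.9. The summed level of the 10 differed 11.1-fold between the lowest mouse, number 43, and the highest, number 58. Within a group the highest mouse was between 1.34 times (0.03 µg/kg) and 7.26 times (30 µg/kg) the lowest.

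**Figure D4:**
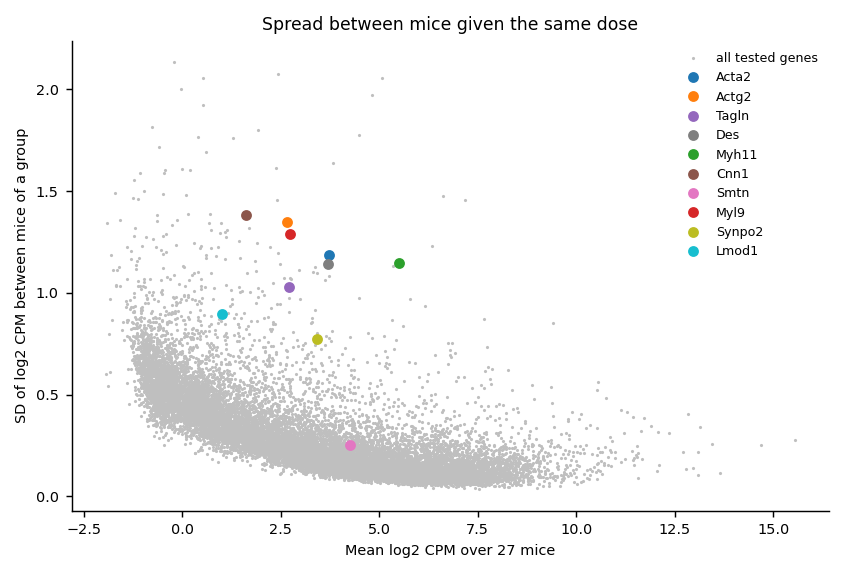
SD of log2 CPM between mice given the same dose against the mean log2 CPM over 27 mice, for all 16741 tested genes (grey) and the 10 members (coloured). *Smtn* lies within the cloud of genes at its level and the other 9 lie at or above its upper edge.

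Summed levels were compared with properties of the libraries. Over 27 mice the log2 of the summed level had an r of 0.049 (rho 0.018) with the counts on genes. With the share of reads assigned to no counted feature, r was 0.074 (rho 0.071). With the number of genes detected r was 0.42 and rho 0.46, and r was 0.56 in the 16 mice of the first use of the library indexes and 0.33 in the 11 mice of the second. The indexes were used once for all mice up to 0.3 µg/kg and for 1 mouse at 1 µg/kg, and again for the rest, so dose and index use cannot be told apart at other doses than 1 µg/kg. There the mouse of the first use, 41, had a summed level of 202.9 CPM and those of the second, 43 and 44, had 43.6 and 91.3 CPM. With index use as a covariate, which rests on these 3 mice, the median log2 fold change was 3.84 at 10 µg/kg and 3.31 at 30 µg/kg, with 0 of 80 tests called by edgeR and 26 with an unadjusted p under 0.05. The share of all genes with such a p was not counted in that fit. The median r between members was 0.93 within the first use and 0.95 within the second.

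The genes most like the members were then found among all other genes. Of 16731 other genes tested, 83 (0.496%) had an r of at least 0.8 with the mean deviation of the 10, against a median of 0.003. The closest was *Tpm2* (r = 0.99), which encodes a tropomyosin of muscle thin filaments, at 1.84 to 30.2 CPM. *Rgs5* (0.98), a marker of pericytes, *Cald1* (0.97), the actin-binding caldesmon, and *Synm* (0.97), an intermediate filament partner of desmin, came next. They were followed by *Dmpk* (0.97), a muscle protein kinase, *Sparcl1* (0.97), a matricellular protein, *Pgm5* (0.96), of adherens junctions in muscle, *Flna* (0.95), filamin A, *Mrvi1* (0.95), part of the cyclic GMP kinase complex on the calcium store, and *Chrm2* (0.94), a muscarinic acetylcholine receptor. Leaving out the 2 farthest mice left these 10 at 0.95 to 0.98. Like the members, they were not called at any dose, and their smallest adjusted p over the 8 doses was 0.0718 (*Dmpk*, edgeR).

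The wider contraction list split by whether genes followed the members. Of its 19 genes, all tested, 7 had an r of at least 0.8 and the median was 0.63. Named after their values were seen, *Mylk*, the light chain kinase (172 to 285 CPM, r = 0.55), *Tpm1* (213 to 265 CPM, r = 0.31) and *Rhoa* (246 to 307 CPM, r = -0.25) stood at higher levels and followed less closely or not at all. At 30 µg/kg 1 gene was called up, *Ppp1r14a*, an inhibitor of myosin phosphatase (log2 fold change 1.02, adjusted p = 0.0453, edgeR), with at most 30 counts in any mouse and an r of -0.028. Of 13 dense body and anchorage genes, 5 had an r of at least 0.8. At any dose 0 were called by edgeR, with an unadjusted p under 0.05 in 17 of 104 tests. At 30 µg/kg *Ldb3* (log2 fold change 0.54, adjusted p = 0.00288, edgeR) and *Svil* (0.40, adjusted p = 0.0167, edgeR) missed the call by their fold change alone.

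Among the regulators and receptors, *Myocd* and the receptors were low. Of 8 regulator genes, 6 were tested and 0 called by edgeR (14 of 48 tests with an unadjusted p under 0.05). *Srf* at 10 µg/kg (log2 fold change 0.47, adjusted p = 0.0196, edgeR) missed the call by its fold change alone. So did *Mkl1*, another listed regulator, at 30 µg/kg (0.42, adjusted p = 0.00253, edgeR). *Myocd*, which encodes myocardin, was at most 1.86 CPM with an r of 0.74. *Srf* was at 45.6 to 81.7 CPM with an r of -0.063. Of 9 contractile receptors 7 were tested and 0 called by edgeR (4 of 56 tests with an unadjusted p under 0.05). The muscarinic *Chrm2* reached 6.60 CPM in mouse 58, while *Chrm3*, the other muscarinic receptor of gut muscle, stayed between 3.69 and 6.73 CPM with an r of 0.22.

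**Figure D5:**
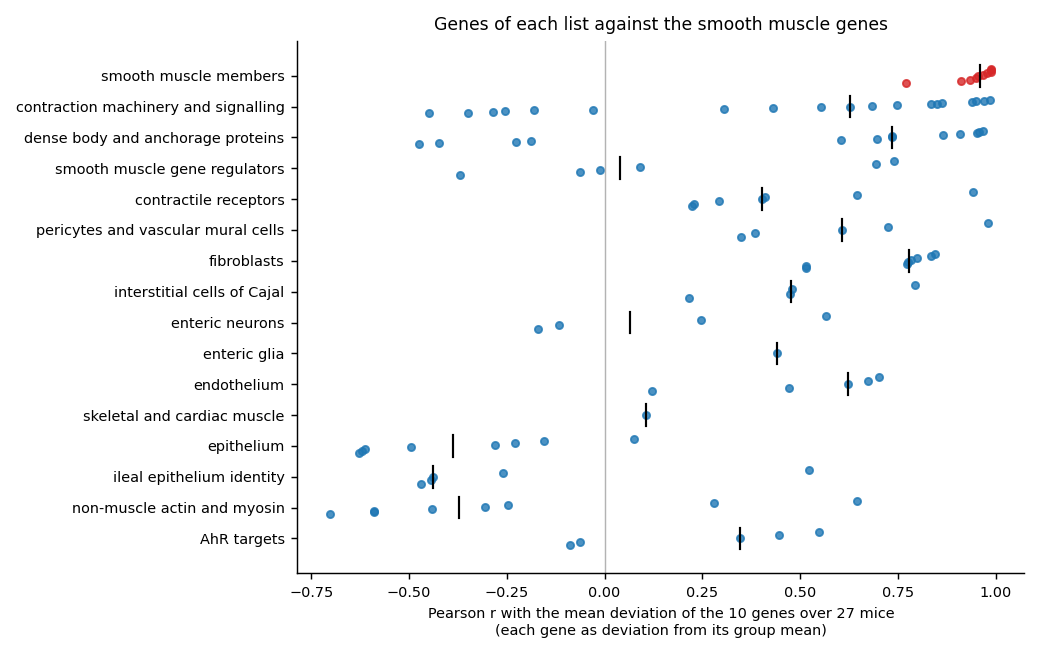
Pearson r between each tested gene of a list and the mean deviation of the 10 members, over 27 mice and after taking out group means (members against the other 9). Vertical bars are list medians. Members lie between 0.77 and 0.99, fibroblast genes between 0.51 and 0.84, and 7 of 8 epithelial genes below 0.

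Markers of other cell types were read beside the members. Fibroblast genes followed them, with a median r of 0.78 over 8 of 8 tested genes, but not in every group. Their summed level was 98.4 to 212 CPM in vehicle mice, 95.9 to 214 CPM in those given 10 µg/kg and 62.7 to 131 CPM in those given 30 µg/kg, with a median log2 fold change of -0.53 at 30 µg/kg and 0 of 8 called by edgeR at any dose (2 of 64 tests with an unadjusted p under 0.05). Pericyte and vascular mural markers summed to at most 39.4 CPM in vehicle mice (median 26.1 CPM), to 20.1 to 65.4 CPM in those given 10 µg/kg and to 25.0 to 67.0 CPM in those given 30 µg/kg, with a median r of 0.61. Of these, *Cspg4* was called higher (1.40, adjusted p = 0.0142, edgeR) and *Pdgfrb* lower (-0.66, adjusted p = 0.00608, edgeR) at 30 µg/kg. The part of these cells in the member levels was not tested.

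Neuron and glia markers were mostly low. Of 10 enteric neuron markers 4 were tested, *Elavl4*, *Tubb3*, *Vip*, *Prph* and *Uchl1* having at most 16 counts in any mouse, and the list summed to 9.02 to 17.1 CPM. *Chat*, the enzyme that makes acetylcholine, was called at 10 µg/kg (2.07, adjusted p = 0.0499, edgeR) but not at 30 µg/kg (adjusted p = 0.276, edgeR). *Chat* had at most 56 counts in any mouse and an r of -0.17 with the members. Its highest level, 4.32 CPM, was in mouse 59 at 10 µg/kg, against a median of 0.691 CPM over mice. Of 4 glial markers 1 was tested, with *Gfap*, *S100b* and *Sox10* at no more than 5 counts. *Kit*, a marker of the interstitial cells of Cajal that pace gut muscle and also of mast cells, was called higher at 10 µg/kg (0.73, adjusted p = 0.00883, edgeR) and 30 µg/kg (0.76, adjusted p = 0.0018, edgeR), but *Ano1*, *Etv1* and *Gja1* were not called. Endothelial genes gave 1 call at each of these doses, *Vwf* (1.25, adjusted p = 0.0164, and 1.01, adjusted p = 0.021, edgeR).

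Striated muscle was listed at or near 0 except for *Acta1*, the skeletal alpha actin. *Myh1*, *Myh4* and *Myh6* had 0 counts in every mouse and *Ckm*, *Tnnt3* and *Actc1* at most 8. *Acta1* ran from 7.14 to 231 CPM, highest in mouse 68, and did not follow the members (r = 0.11). At 30 µg/kg it was called higher (log2 fold change 1.43, adjusted p = 0.0481, edgeR). By the summed level of the 10 smooth muscle genes, mouse 68 was the fourth lowest, above mice 43, 3 and 26.

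Epithelial genes ran the other way, at a small scale. Their median r with the members was -0.39 over 8 genes, and their summed level had an r of -0.66. In mouse 65, *Epcam*, an adhesion molecule of epithelium, was at its lowest, 965 CPM, against 1444 CPM as the median over mice. The keratin *Krt19* (r = 0.07), the listed epithelial gene with an r above 0, was instead at its highest in mouse 65. It was at 1530 CPM there, against a median of 1232 CPM. Non-muscle actin and myosin genes, which the epithelium also uses, had a median r of -0.37, but *Myh10* (0.64) and *Myl6* (0.28) lay above 0. Of the 8 genes in that list, 0 were called by edgeR (3 of 64 tests with an unadjusted p under 0.05). *Krt18*, a keratin of simple epithelium, was called higher at 10 µg/kg (0.59, adjusted p = 0.00115, edgeR). Of 5 genes of ileal enterocytes, the bile acid transporter gene *Slc10a2* (0.75, adjusted p = 0.0339) and *Cubn* (1.01, adjusted p = 0.00448) were called higher and *Fabp6*, the ileal bile acid binding protein, lower (-0.94, adjusted p = 0.012) at 30 µg/kg by edgeR. These 5 genes had a median r of -0.44 with the members, while *Fabp6* had an r of 0.52. Of 5 AhR targets, 4 (*Cyp1a1*, *Cyp1b1*, *Ahrr* and *Tiparp*) were called higher at 30 µg/kg by edgeR, with r with the members from -0.088 to 0.55.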

How the data were processed

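RNA-Seq was performed on ileal scrapings of 27 mice. Per the submitters' processing notes and the methods, the authors checked reads with FastQC 0.11.3, trimmed them with Trimmomatic 0.33, aligned them to GRCm38 with TopHat2 2.1.0, and used SAMtools 1.2.0 and HTSeq 0.6.1. Options for counting and strand are not given in the sources used here. The authors deposited raw counts per Ensembl gene, without normalization. Rows that name no gene were left out of library sizes. Among them were reads assigned to no counted feature (44.5 to 49.5% of unique reads) and ambiguous reads (0.607 to 1.02%). Overlapping genes therefore lose ambiguous reads.

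Counts were filtered with filterByExpr (minimum count 10, total 15), scaled by TMM and fitted with edgeR 4.0.16 (R 4.3.3) as 1 quasi-likelihood model of 9 groups over all genes. Genes were called at a fold change of 1.5 or more with an adjusted p no higher than 0.05. Log2 CPM used a prior count of 2. Levels per kb used the union of exons in GENCODE M21. The SE of a log2 fold change or slope was derived as its absolute value over the square root of the F statistic. Intervals of log2 fold changes are 95% t intervals built on that SE, so both are approximate. The procedure was tested on simulated data. The 27 pairs of mice within a dose differed by 6.99 to 74.3 times sampling noise (chi-square over its degrees of freedom). The highest were the pairs of mouse 65 at 30 µg/kg, 74.3 with mouse 67 and 45.5 with mouse 68. Next came mice 41 and 43 at 1 µg/kg (22.5).

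The members and lists were chosen with earlier results of these data known. By rule, named genes were the 10 members, the 10 other genes with the highest r, listed genes called at a dose (at most 5 a list) and *Cyp1a1*. Outside this rule, *Mylk*, *Tpm1*, *Rhoa*, *Ldb3*, *Svil*, *Srf*, *Mkl1*, *Myocd*, *Chrm3*, *Epcam*, *Krt19*, *Myh10* and *Myl6*, among others, were also named. Not every miss by fold change alone was given. *Slc51a* at 10 µg/kg (0.43, adjusted p = 0.0193, edgeR) and *Krt18* at 30 µg/kg (0.40, adjusted p = 0.00818, edgeR) were others. Alternatives were DESeq2 1.42.0, other scalings, no filter, no fold threshold, the 6 mice compared, index use, and each mouse left out. The single result of 1 listed gene is not reported here.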

Additional observations from a re-analysis of the deposited data

How the results depend on the processing

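The count of member tests called was 0 of 80 with DESeq2, upper-quartile scaling, library size only, no fold change threshold, only the 6 mice compared, index use as a covariate and each mouse left out (range 0 to 0). Without the filter on low counts it was 3, and the test of any difference then called 3 members. The cause was not tested. The trend called 0 members in the fit and within each index use, and 0 to 1 with a mouse left out (*Lmod1*, without mouse 14 or mouse 59, adjusted p = 0.0488 and 0.0457, edgeR). At 30 µg/kg, leaving out mouse 65 reversed the sign of *Acta2* (-0.32), *Actg2* (-0.57), *Tagln* (-0.29), *Des* (-0.15), *Cnn1* (-0.52), *Smtn* (-0.19), *Myl9* (-0.49) and *Synpo2* (-0.16). Leaving out 1 mouse at a time, the log2 fold changes of the 10 members at 30 µg/kg ran from -0.57 to 2.70 (highest for *Acta2* 1.90, *Actg2* 2.05, *Tagln* 1.77, *Des* 2.05, *Cnn1* 2.70, *Smtn* 0.40, *Myl9* 1.86 and *Synpo2* 1.41), and at 10 µg/kg, an alternative chosen after seeing the data, from 0.36 to 3.67 with none reversed. The unadjusted p under 0.05 held in 33 of 80 tests without vehicle mouse 2 and in 1 without mouse 3 or mouse 4. The share of all genes with such a p was not counted in those fits. Measured per longest transcript, *Myh11* was highest in place of *Acta2*, and the *Smtn* level was 5.63 in place of 4.36 CPM per kb, above that of *Myl9*. A prior count of 0.5 left the median r between members at 0.92. No paired analysis was possible because the labels give each mouse its own number and the replicate numbers follow accession order.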

Other observations

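As an alternative chosen after seeing the data, the mean log2 CPM of the members was added to the fit of all genes as a covariate. The genes called were then 148 in place of 99 at 1 µg/kg, 252 in place of 185 at 3 µg/kg, 570 in place of 423 at 10 µg/kg and 1958 in place of 1574 at 30 µg/kg. Called in both fits were 99, 181, 349 and 1516 genes at these doses.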
